A study of Homo sapiens with 12 samples.

Results

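Daoy is a human medulloblastoma (MB) line, HTB-186, and ACM is the medium that cultured rat astrocytes have conditioned. This section describes what differed in Daoy cells between 3 passages (P3) and 1 passage (P1) in ACM, a passage lasting 48 h. The comparison took 6 of the 12 arrays of the series, 3 P3 ACM and 3 P1 ACM, and all genes whose probe was well above background on each of these 6 arrays: 25334 of 34127 probes (74.2%), or 20586 genes, 15871 of them with a symbol in RefSeq. The other 6 arrays were Daoy cells in DMEM for the same numbers of passages, 3 P1 DMEM and 3 P3 DMEM, and gave the passage comparison in the other medium. Cells of all 4 groups received medium with fetal bovine serum and antibiotic antimycotic and were detached with trypsin and reseeded 1:3 at each passage. ACM came from hippocampal astrocytes of Sprague Dawley pups 1 to 2 days old, so any astrocyte factor in these cultures was a rat factor, delivered in solution and without contact between the cells. One cell line was used, and each group was 3 cultures. According to the labels the cultures were separate experiments, and whether a replicate number stands for a shared day is not given.

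Astrocytes are the glial cells that supply metabolites to neurons and, when activated, release cytokines, growth factors and matrix proteins. MB is a tumour of the cerebellum, and part of these tumours depends on hedgehog signalling, in which the transcription factor GLI1 is both effector and target. Serum and growth factors switch on immediate early genes such as FOS and EGR1 within minutes through MAPK signalling, and inflammatory stimuli free NF-kB, which switches on chemokine genes together with its own inhibitor NFKBIA.

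Slide 1 carried P3 ACM replicate 1 and the 3 arrays of P1 ACM. P3 ACM replicates 2 and 3 were on slide 2 beside P1 DMEM replicates 1 and 2, and P1 DMEM replicate 3 and the 3 P3 DMEM arrays were on slide 3, so the passage comparison in DMEM is also divided by slide and is not a measure of passage alone. Passage in ACM and slide are therefore shared out unequally. P3 ACM replicate 1 is the sole array that allows a passage difference in ACM to be read within a slide. In DMEM, slide 3 allows the same through P1 DMEM replicate 3, but the DMEM passage differences below are those of all DMEM arrays. Between 90.9% and 94.6% of the probes were well above background on the slide 1 arrays, against 75.2% and 78.9% on P3 ACM replicates 2 and 3. P3 ACM replicate 1 correlated with the P1 ACM arrays at r = 0.976 to 0.993 across probes, and with the other P3 ACM arrays at r = 0.952 to 0.977. Sample labels were taken from the scanner files. They conflict with those of the series' normalized table, in which every column matches the scanner values of another sample (Spearman's rho 0.953 to 0.992 with its own array, at least 0.999986 with another), and which labels are right was not settled here. Under the table's labels, its P1 ACM columns are the scanner arrays P1 DMEM 2, P1 DMEM 1 and P3 ACM 3, and its P3 ACM columns are P3 ACM 2, P3 DMEM 3 and P3 DMEM 2, so the label conflict touches each result here.

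All 12 fibroblast or mesenchymal markers were well above background on the 6 ACM arrays, with VIM between 6.36 and 6.71, on a log2 scale whose 0 is the 75th percentile of that array. Of 16 medulloblastoma and granule lineage markers, 14 were, and the lineage factors ATOH1 and NEUROD1 were so on 1 and 2 of the 6 arrays. The summed intensity of those lineage markers was 8.43 to 9.12 times the 75th percentile in P1 ACM and 8.10 to 9.72 times in P3 ACM. Of 12 astrocyte markers 9 were well above background on all 6 arrays, with a summed intensity of 22.8 to 30.0 times in P1 ACM and 19.9 to 25.5 times in P3 ACM. The others, GFAP, S100B and GJB6, were so on 3, 4 and 4 of the 6 arrays, and AQP4, a water channel of astrocyte endfeet, was on all 6 at -5.59 to -3.99. Of the 11 microglia and macrophage markers on the array 8 were, with sums of 17.5 to 25.0 times in P1 ACM and 14.9 to 22.6 times in P3 ACM. The others, CX3CR1, P2RY12 and C1QC, were each so on 4 of the 6 arrays. Their part, and that of astrocytes, in the results was not tested. The sums rest mostly on few genes and do not rank the cell types. By mean level over the 6 ACM arrays, NDRG2 (4.25) and GJA1 (1.83) were the only astrocyte markers above 0. ITGAM (4.15) was the only such microglia and macrophage marker, and FLNA (2.06) and SFRP1 (0.73) were the only such medulloblastoma and granule lineage markers.

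Few genes passed the study's thresholds between P3 and P1 in ACM, and nearly all of those were lower. More than 2-fold with p of 0.05 or less (limma, unadjusted) held for 123 of 20586 genes (0.597%), 5 higher (0.0243%) and 118 lower (0.573%) in P3 ACM. No gene (0) passed after Benjamini-Hochberg adjustment, where the smallest adjusted p was 0.889. At p of 0.05 or less with any fold, 511 genes (2.48%) passed in limma and 456 in the t-test named in the study's methods, which left 10 past both thresholds and 0 after adjustment. In DMEM, passage gave 287 genes (1.39%) past the thresholds, 141 higher (0.685%) and 146 lower (0.709%), and again 0 after adjustment. That DMEM count came from a fit of all 12 arrays, in which ACM had 311 genes past the thresholds, 8 higher and 303 lower. Which medium had more genes past the thresholds therefore depended on the fit. The count of 123 in ACM turned on single arrays. It was 1679 without P3 ACM replicate 1, of which 1666 were lower, and 17, 28, 32 and 29 without P3 ACM replicate 2, P3 ACM replicate 3, P1 ACM replicate 1 and P1 ACM replicate 2. With the replicate numbers as a block it was 258 genes (1.25%), 9 higher (0.0437%) and 249 lower (1.21%), and with quantile normalization it was 51, 31 of them higher and 20 lower, so the excess of lower genes was not seen on that scale. Whatever their size, 678 genes (3.29%) were higher on all 3 P3 arrays than on all 3 P1 arrays, and 597 (2.90%) were lower on all 3. The ACM cultures are bulk RNA, in which fewer cells of a kind and less RNA per cell cannot be told apart.

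FOS, the immediate early gene whose protein pairs with JUN to form the factor AP-1, led the genes that were higher after 3 passages. Its levels were -1.22, -3.13 and -1.73 in P1 ACM replicates 1 to 3, and -0.49, -0.51 and -0.23 in the P3 ACM replicates. The 3 P3 arrays lay close together and all above the P1 arrays, with a gap of 0.71 between the nearest pair. The difference was 1.62 ± 0.45 (SE, log2, limma adjusted p = 0.889), and an exact two-sided permutation test gave p = 0.1, the smallest that 3 against 3 arrays allow. Within slide 1, P3 ACM replicate 1 was higher than the P1 ACM mean by 1.54, and replicates 2 and 3 by 1.66, so FOS differed as much on that slide as off it, although the within-slide value has 1 array on the P3 side and did not pass the thresholds. FOS was also higher after 3 passages in DMEM, by 1.53 (limma adjusted p = 0.477), at -1.58, -1.46 and -1.03 in P1 DMEM against -1.64, 1.32 and 0.83 in P3 DMEM, where replicate 1 was not higher. The passage difference in ACM exceeded that in DMEM by 0.09 ± 0.92 (SE). The other 4 genes past the thresholds and higher, named after their values were seen, were FDCSP (1.03 ± 0.40 SE), EBLN1 (1.03 ± 0.33 SE), SYCN (1.37 ± 0.56 SE) and LOC100130331 (1.33 ± 0.49 SE), and of these LOC100130331 alone had no overlap between the passages. SYCN, the syncollin of pancreatic secretory granules, and LOC100130331 were at most 0.40 above the P1 mean on P3 ACM replicate 1. FDCSP, a peptide secreted by follicular dendritic cells, was at -2.11, -2.70 and -3.09 in P1 ACM and at -1.01, -1.40 and -2.41 in P3 ACM, higher in every replicate pair. None (0) of these 4 genes passed without P3 ACM replicate 2, where the differences of FDCSP, EBLN1, SYCN and LOC100130331 were 0.92, 0.84, 0.73 and 0.76, or without P1 ACM replicate 2, where they were 0.99, 0.98, 1.38 and 1.16, while FOS passed without each of the 6 arrays in turn (1.07 to 2.02). The sequence of its promoter is shown because FOS led the genes that were higher, with the core of the cAMP response element, TGACGT, in capitals 64 bases before the gene start (chr14:75278578-75278827, plus strand, GRCh38.p14, from RefSeq).
FOS: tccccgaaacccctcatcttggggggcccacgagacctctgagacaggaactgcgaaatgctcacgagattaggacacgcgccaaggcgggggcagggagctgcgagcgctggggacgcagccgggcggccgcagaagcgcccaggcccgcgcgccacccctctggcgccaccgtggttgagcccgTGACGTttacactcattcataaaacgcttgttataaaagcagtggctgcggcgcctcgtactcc

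Other immediate early genes gave no common direction. Of 30 immediate early and MAPK feedback genes measured, FOS alone passed the thresholds, 12 (against 46.7% of all genes) were higher and 18 lower, and the median difference was -0.11 beside -0.02 for all genes tested. That median turned with single arrays, from -0.31 without P3 ACM replicate 1 to 0.15 without P3 ACM replicate 3, and was 0.03 with quantile normalization, where 16 of the 30 were higher. On P3 ACM replicate 1 alone 23 of the 30 were above the P1 mean. EGR1, a zinc finger factor induced with FOS, was at 2.62, 1.48 and 1.40 in P1 ACM and at 2.53, 2.71 and 2.52 in P3 ACM. The P3 arrays of EGR1 were again close together, but P1 ACM replicate 1 lay among them, and the difference of 0.75 ± 0.33 (SE) did not pass the thresholds. IER2 was higher on all 3 P3 arrays, at 2.81, 2.97 and 2.88 against 2.65, 2.31 and 2.52, by 0.39 ± 0.17 (SE), which is under 2-fold. IER5 was the third gene of the list without overlap, by 0.10, which makes 3 of 30 (10.0%) beside 3.29% of all genes. Their partners did not separate. JUN was at 2.43, 2.11 and 1.43 in P1 ACM and 2.38, 2.34 and 1.82 in P3 ACM, and ATF3 at 2.60, 3.02 and 1.72 against 2.93, 2.12 and 0.31. MYC differed by 0.13 ± 0.31 (SE). TGACGT occurs on either strand in 2273 of 27305 promoters overall (8.32%). For this list it was in 7 of the 23 found (30.4%: DUSP1, EGR1, FOS, FOSB, FOSL2, JUND and SPRED2). The list was picked from known immediate early and MAPK feedback genes, so that share is not a result of these arrays.

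**Figure D1:**
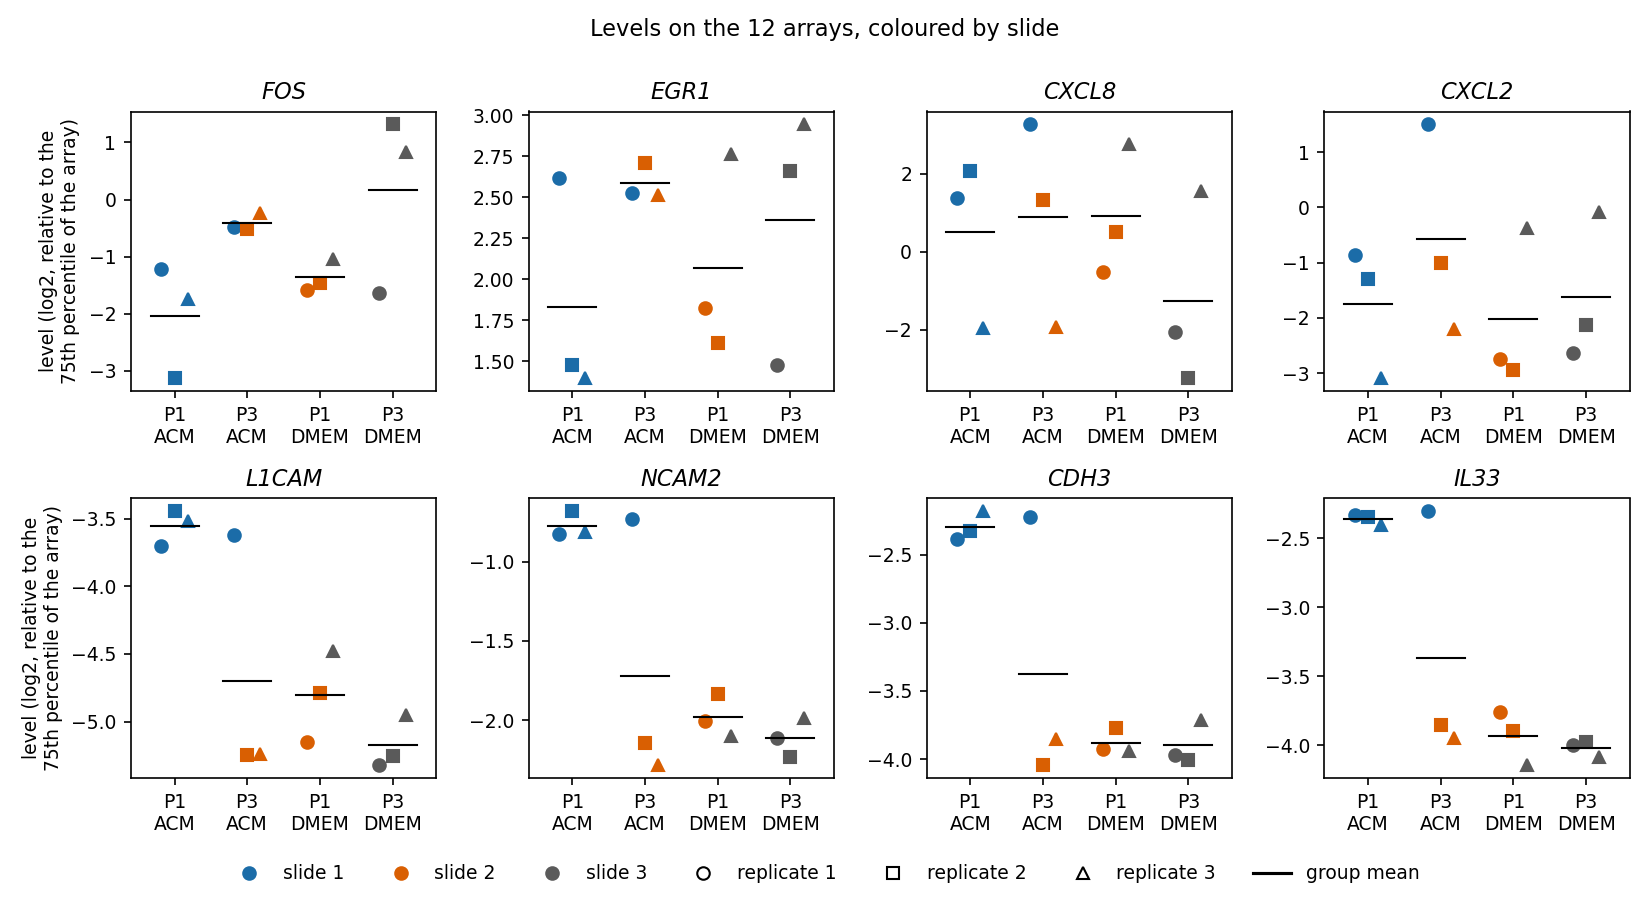
Level of 8 genes on each of the 12 arrays (log2, with 0 at that array's 75th percentile), by group, with the colour giving the slide, the symbol the replicate number and the line the mean of 3 arrays. FOS is higher on all 3 P3 ACM arrays than on all P1 ACM arrays, CXCL8 and CXCL2 are lowest in replicate 3 of both ACM groups, and L1CAM, NCAM2, CDH3 and IL33 are high on the 4 arrays of slide 1, which include P3 ACM replicate 1, and low on the 8 others.

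The genes that were lower in P3 ACM were mostly dim, and most were within the P1 ACM range on P3 ACM replicate 1. Of the 118, 104 were in the dimmest of 3 equal classes of genes by mean signal, 12 in the middle class and 2 in the brightest. For 94 of them (79.7%) all 4 arrays of slide 1, P3 ACM replicate 1 included, were above the 8 others, against 2987 of all 20586 genes (14.5%). Genes lower in P3 ACM were picked for P1 ACM levels above P3 ACM levels, so part of that contrast was set in advance. Slide 1 held ACM arrays alone and the 8 others included all DMEM arrays, so slide and medium cannot be told apart in this count. The median level of the 118 was -2.93 in P1 ACM and -2.95 on P3 ACM replicate 1, but -4.66 on P3 ACM replicates 2 and 3, -4.33 on the P1 DMEM arrays of slide 2, -4.07 on that of slide 3 and -4.11 in P3 DMEM. The median difference from P1 ACM was -0.02 for P3 ACM replicate 1 and -1.71 for replicates 2 and 3, and on replicate 1 a single gene of the 118 (FLG) was more than 2-fold lower while 76 were within the range of the P1 arrays. All 118 stayed on the lower side with quantile normalization, at a median of -0.80, and 38 did under the table's labels. Across all genes the median difference was -0.28, -0.02 and 0.09 in the dim, middle and bright classes. On P3 ACM replicate 1 alone it was 0.06, 0.01 and -0.00, and with quantile normalization 0.04, 0.03 and 0.02. The part of the slide in these differences was not tested beyond these values.

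**Figure D2:**
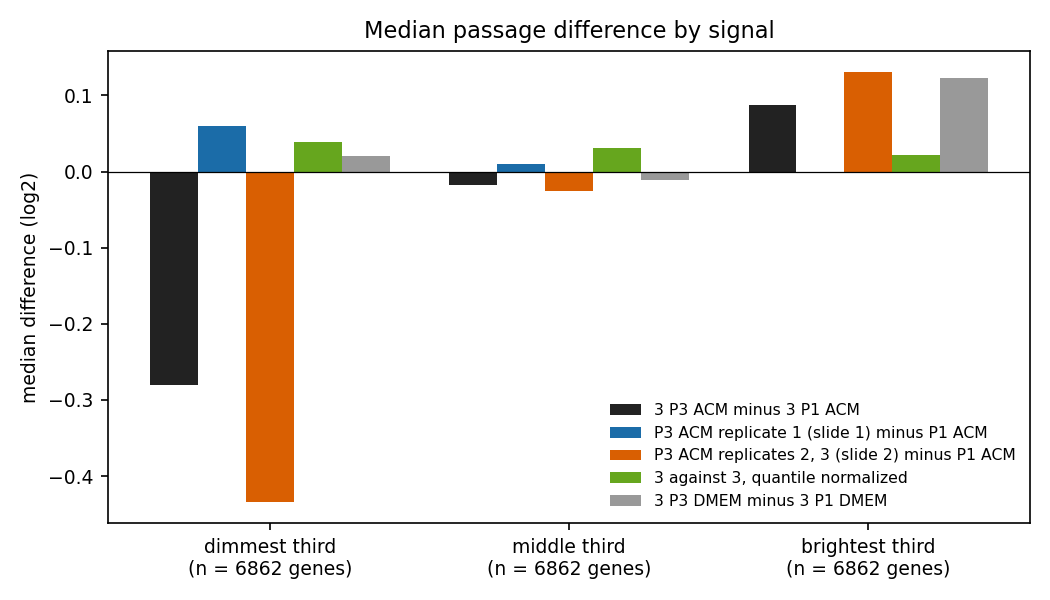
Median passage difference (log2) of the genes in 3 equal classes of mean signal, 6862 genes each, for the 3 against 3 comparison, P3 ACM replicate 1 alone, P3 ACM replicates 2 and 3, the quantile normalized values and DMEM. The dim class is at -0.28 in the 3 against 3 comparison and at -0.43 for replicates 2 and 3, but at 0.06 for replicate 1.

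The 12 symbols below led the genes that were lower without overlap of the arrays, ranked by the gap: SLC7A14, BCAR4, LCE1B, CEACAM21, XPNPEP2, FLG, PROK1, RXFP4, LMX1A, MUC16, LTC4S and CHRNA2. Their differences ran from -1.33 to -1.04 with gaps of 0.01 to 0.32, each with an adjusted p of 0.889. Whether they share a role was not tested. SLC7A14, a member of the cationic amino acid transporter family, was at -3.52, -3.62 and -3.15 in P1 ACM and at -3.94, -5.01 and -5.29 in P3 ACM. All 3 P3 arrays were below, though replicate 1 by far less than the others (difference -1.32 ± 0.36 SE, and -0.51 within slide 1). FLG, the filaggrin of the outer epidermis, was at -4.07, -4.14 and -2.99 against -5.14, -4.23 and -5.83, and here replicate 1 was as low as replicates 2 and 3 (-1.41 and -1.30 from the P1 mean), although FLG did not pass without P1 ACM replicate 3 (-0.96), P3 ACM replicate 1 (-1.30) or P3 ACM replicate 3 (-0.95). SLC7A14 passed without each array in turn (-1.72 to -1.05). FLG was also lower after passage in DMEM, by -0.80 (limma adjusted p = 0.559), and its DMEM arrays lay between -4.39 and -1.66. LMX1A, a homeobox factor of the roof plate and of dopamine neurons, was at -2.88, -3.00 and -3.47 against -3.52, -4.85 and -4.54, with the nearest pair 0.06 apart. MUC16, the mucin that carries the CA125 antigen, differed by -1.09 ± 0.32 (SE) and LTC4S, leukotriene C4 synthase, by -1.26 ± 0.46 (SE). MUC16 did not pass without P1 ACM replicate 2 (-0.95), P3 ACM replicate 2 (-0.96) or P3 ACM replicate 3 (-0.90), and LTC4S, at -0.11 from the P1 mean on P3 ACM replicate 1, passed without that array (-1.84) but not without any one of the others (-1.31 to -0.94). LMX1A did not pass without P3 ACM replicate 2 (-0.92). For 7 of the 12 the slide 1 arrays were above all others, and 3 of the 12 were lower under the table's labels.

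Of the adhesion genes, the group the study followed up after 1 passage, few passed, and those that did were of the dim class. Of 14 measured genes of the L1, NCAM and contactin family 1 passed the thresholds, L1CAM, and of 17 cadherins and protocadherins 2 did, CDH3 and CDH10, all lower in P3 ACM (background 0.573%). All 4 slide 1 arrays were above the others for 6 of the 14 and for 2 of the 17, against 14.5% of all genes. L1CAM, a neural adhesion protein of the immunoglobulin family, was at -3.71, -3.45 and -3.52 in P1 ACM and at -3.62, -5.25 and -5.24 in P3 ACM. P3 ACM replicate 1 lay within the P1 range, and the others lay at the DMEM levels of -5.32 to -4.48. The difference was -1.15 ± 0.43 (SE, limma adjusted p = 0.889), and within slide 1 it was -0.07. L1CAM passed the thresholds without P3 ACM replicate 1 (-1.69), but not when any one of the 5 other arrays was left out (-1.22 to -0.87), and the same held for CDH3 (-1.65, and -1.12 to -0.74) and CDH10 (-1.70, and -1.29 to -0.69). A second L1CAM probe, well above background on 5 of the 6 arrays and so not tested, was at -5.02, -4.47 and -3.99 against -5.61, -5.54 and -5.45, and there P3 ACM replicate 1 was below the P1 arrays. NCAM2, a second neural member of that family, was at -0.83, -0.68 and -0.81 against -0.73, -2.15 and -2.29, with DMEM at -2.23 to -1.83, and did not reach 2-fold (-0.95 ± 0.40 SE). CDH3, or P-cadherin, was at -2.38, -2.32 and -2.18 against -2.23, -4.05 and -3.85. CDH10, a neural cadherin, was at -2.46, -2.34 and -1.86 against -2.32, -4.33 and -3.50. In NCAM2, CDH3 and CDH10 P3 ACM replicate 1 was again within the P1 range. NFASC, the neurofascin of nodes and axon initial segments, did not separate, at 0.83, 0.64 and 0.17 against 0.75, 0.41 and 0.49 (0.00 ± 0.22 SE), and its 2 other probes differed by -0.12 and -0.42. Of the 14 genes of the L1, NCAM and contactin family, 1 was higher without overlap, CADM1 (7.14%, beside 3.29% of all genes). Of the same 14, 2 were lower without overlap (14.3%, beside 2.90%). Of the 17 cadherins and protocadherins, none (0) were higher without overlap and 1 was lower (5.88%). CDH2 and CADM1 are given as examples of brighter adhesion genes. CDH2, or N-cadherin, was at 2.42, 2.35 and 2.29 against 2.18, 2.74 and 2.56, and CADM1 at 2.21, 2.30 and 2.27 against 2.41, 2.75 and 2.40, without overlap but by 0.26 ± 0.17 (SE). Of 18 measured integrins, 41 collagens and matrix proteins and 28 matrix proteases and inhibitors none (0) passed the thresholds, with medians of 0.03, -0.03 and -0.15.

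Read within slide 1 alone, other genes stood out beside some of those above. P3 ACM replicate 1 was above the P1 ACM mean by 1.62 for FDCSP, 1.54 for FOS and 1.32 for EBLN1. For LOC100130331 and SYCN it was above by 0.40 and 0.19. On P3 ACM replicates 2 and 3 all of these genes were also above that mean, FDCSP by 0.73 and EBLN1 by 0.88. Limma with slide as a block, in which the ACM estimate is P3 ACM replicate 1 minus the P1 ACM mean, put 52 genes past the thresholds (0.253%), 39 higher (0.189%) and 13 lower (0.0631%), with 0 after adjustment. The genes named next were chosen after their values were seen. Higher on that array were CXCL2 by 3.26, CXCL3 by 1.94 and SOD2 by 1.20, all NF-kB targets, with the proteoglycan SRGN by 2.39 and the neurotrophic factor GDNF by 1.12. Lower were the hyaluronan link protein HAPLN1 by -2.52, the chemoattractant RARRES2 by -2.47, the imprinted GTPase DIRAS3 by -1.97 and CDH11, a mesenchymal cadherin, by -1.15. None of these held on P3 ACM replicates 2 and 3, where CXCL2 was 0.15, SRGN 0.16, HAPLN1 0.45 and CDH11 0.06 from the P1 ACM mean. One array gives no spread of its own, and the test takes it from the other arrays.

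**Figure D3:**
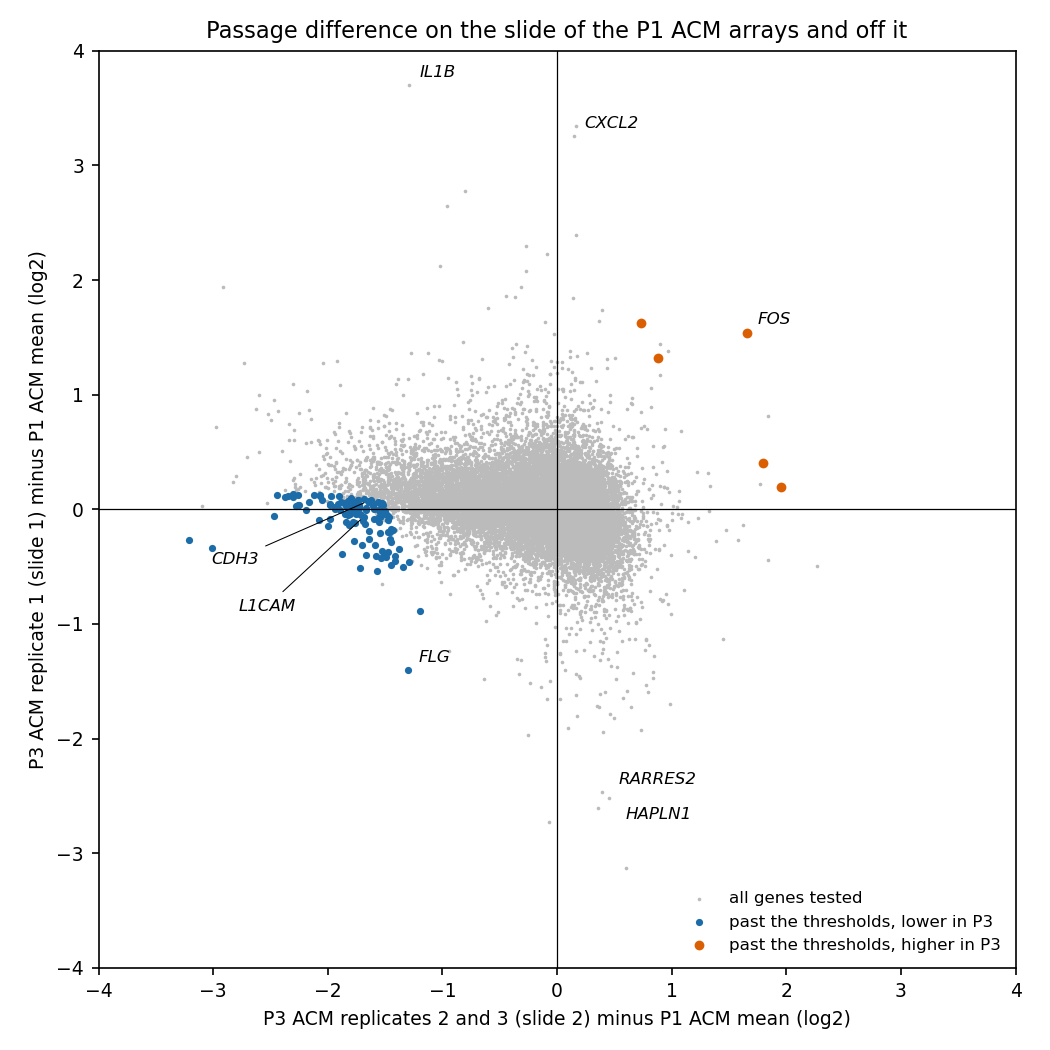
Difference of P3 ACM replicate 1 (same slide as P1 ACM, vertical) and of P3 ACM replicates 2 and 3 (other slide, horizontal) from the P1 ACM mean, log2, for all 20586 genes. FOS is up on both axes, most genes past the thresholds and lower (blue) lie near 0 on the vertical axis, with FLG the exception at -1.41, and IL1B and CXCL2 are high on replicate 1 alone.

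Chemokine and cytokine genes had the largest shift of any list, and their levels went with the replicate number more than with passage. Of the 20 measured, 15 were higher and 5 lower, at a median of 0.33 beside -0.02 for all genes, and 1 passed the thresholds (beside 0.597% of all genes). This was IL33, an alarmin of the IL-1 family, at -2.33, -2.34 and -2.40 in P1 ACM and at -2.30, -3.85 and -3.95 in P3 ACM, a difference of -1.01 ± 0.42 (SE), with P3 ACM replicate 1 at the P1 level, and it passed without that array (-1.54) but not without any one of the others (-1.03 to -0.72). The median was 1.05 on P3 ACM replicate 1 and -0.12 on replicates 2 and 3, and it was -0.12 without P3 ACM replicate 1, -0.11 without P1 ACM replicate 3 and 1.01 without P3 ACM replicate 3. Replicate 3 was the lowest of its group in both P1 and P3 ACM for 15 of the 20, against 24.4% of all genes. CXCL8, which attracts neutrophils, was at 1.38, 2.06 and -1.95 in P1 ACM and at 3.27, 1.32 and -1.92 in P3 ACM. IL6, a cytokine of the acute phase response, was at 1.80, 1.97 and -0.67 against 3.33, 2.27 and -0.74, and IL1B, a cytokine that itself activates NF-kB, at 1.06, 1.52 and -3.31 against 3.45, -0.06 and -3.02. In each of these genes both replicate 3 arrays were far below the other 4, and P3 ACM replicate 1 was the highest. CXCL2 was at -0.86, -1.30 and -3.10 against 1.50, -1.002 and -2.21, higher in P3 in every pair of replicates (1.18 ± 0.97 SE), and it passed the thresholds with the replicate block (adjusted p = 0.627) but not without it. A second CXCL2 probe, well above background on the 6 arrays, was at -1.80, -1.52 and -2.94 against -0.30, -1.87 and -3.28 (0.27), higher in P3 in the first pair alone. CSF2, or GM-CSF, was at -0.78, 0.02 and -3.82 against 1.81, -0.45 and -2.27. In DMEM the order of the replicates was the other way: CXCL8 was highest in replicate 3 at both passages, at -0.52, 0.51 and 2.78 in P1 DMEM and -2.07, -3.25 and 1.55 in P3 DMEM. The passage difference of CXCL8 in ACM, 0.39 ± 1.47 (SE), was far within this spread.

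Genes of the NF-kB list, which holds NF-kB subunits, feedback inhibitors and other targets, followed the chemokines at smaller amplitude. Of 20 measured, 18 were higher in P3 ACM (46.7% of all genes were), at a median of 0.23, and none (0) passed the thresholds. The median was 0.60 on P3 ACM replicate 1 and -0.16 for passage in DMEM. It was 0.07 without P1 ACM replicate 3, 0.08 when P3 ACM replicate 1 was left out and 0.46 when P3 ACM replicate 3 was. Replicate 3 was the lowest in both ACM groups for 11 of them (55.0%). NFKBIA, the inhibitor that holds NF-kB in the cytosol, was at 2.55, 2.29 and 1.60 against 3.19, 2.61 and 1.99, higher in each pair but overlapping as groups (0.45 ± 0.36 SE). TNFAIP3, which removes ubiquitin from the pathway's adaptors, was at 0.59, 0.47 and -0.28 against 1.37, 0.93 and 0.03, and ICAM1, the ligand of leukocyte integrins, at 1.67, 1.88 and 1.23 against 2.29, 1.24 and 1.62. The promoters of 4 of these genes are shown because their levels moved together across the arrays, with the NF-kB motif GGANTTTCC, read on both strands, in capitals. It lies 91 bases before the gene start of CXCL8 (chr4:73740319-73740568, plus strand), 77 before that of CXCL2 (chr4:74099196-74099445, minus strand), 72 before that of IL6 (chr7:22726950-22727199, plus strand) and 242 and 81 before that of NFKBIA (chr14:35404750-35404999, minus strand, all GRCh38.p14 from RefSeq).
CXCL8: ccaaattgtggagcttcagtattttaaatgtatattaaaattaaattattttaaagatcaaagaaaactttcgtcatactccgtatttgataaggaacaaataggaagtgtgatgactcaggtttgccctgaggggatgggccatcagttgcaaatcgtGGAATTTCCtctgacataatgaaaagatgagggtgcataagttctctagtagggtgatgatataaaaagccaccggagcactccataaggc
CXCL2: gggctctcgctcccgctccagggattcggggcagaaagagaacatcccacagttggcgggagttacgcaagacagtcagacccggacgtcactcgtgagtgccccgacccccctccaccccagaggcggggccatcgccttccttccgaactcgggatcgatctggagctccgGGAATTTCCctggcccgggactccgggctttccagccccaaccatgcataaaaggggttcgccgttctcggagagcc
IL6: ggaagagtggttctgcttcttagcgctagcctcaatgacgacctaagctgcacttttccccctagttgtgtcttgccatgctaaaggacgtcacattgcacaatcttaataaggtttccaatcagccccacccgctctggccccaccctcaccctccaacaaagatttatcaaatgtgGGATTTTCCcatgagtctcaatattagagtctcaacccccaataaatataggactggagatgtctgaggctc
NFKBIA: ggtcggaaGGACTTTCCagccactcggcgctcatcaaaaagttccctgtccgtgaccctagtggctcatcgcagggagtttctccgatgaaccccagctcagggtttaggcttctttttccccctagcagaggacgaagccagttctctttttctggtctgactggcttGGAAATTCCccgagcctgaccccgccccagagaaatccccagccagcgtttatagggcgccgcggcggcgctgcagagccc
In windows of 250 bases before to 50 after the gene start the motif was present in 449 of 27305 promoters overall (1.64%). It was in 6 of the 15 found for the chemokine list (40.0%: CXCL1, CXCL2, CXCL3, CXCL5, CXCL8 and IL6). For the NF-kB list it was in 6 of 17 (35.3%: ICAM1, NFKB1, NFKBIA, NFKBIZ, REL and TNFAIP3). The genes of both lists were picked for known roles, NF-kB signalling among them, so these shares are not a result of these arrays.

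Metallothioneins and interferon-stimulated genes also split by replicate number, in opposite directions. Of 16 measured metallothionein and zinc transporter genes 12 were lowest in replicate 3 of both ACM groups (24.4% of all genes were). MT2A, which binds zinc and copper, was at 4.89, 5.43 and 3.70 in P1 ACM and at 5.57, 5.03 and 4.18 in P3 ACM, and MT1X at 2.16, 2.61 and 0.43 against 2.79, 2.11 and 1.14. Of 38 interferon-stimulated genes 26 were highest in replicate 3 of both groups (68.4%, against 25.2% of all genes). IFIT1, which binds viral RNA, was at -2.02, -0.93 and -0.14 against -2.11, -0.77 and -0.47, and ISG15, a ubiquitin-like modifier, at 1.81, 2.36 and 2.56 against 1.63, 2.28 and 2.32. In both genes replicate 1 was the lowest and replicate 3 the highest at each passage, and the passage differences were -0.09 ± 0.57 (SE) and -0.17 ± 0.28 (SE). None (0) of the genes of either list passed the thresholds, and the medians were 0.19 and -0.10. Without P1 ACM replicate 3 the metallothionein median was -0.21, and without P3 ACM replicate 1 it was -0.05. The interferon median was 0.03 and 0.06 without these arrays, and 0.34 under the table's labels.

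**Figure D4:**
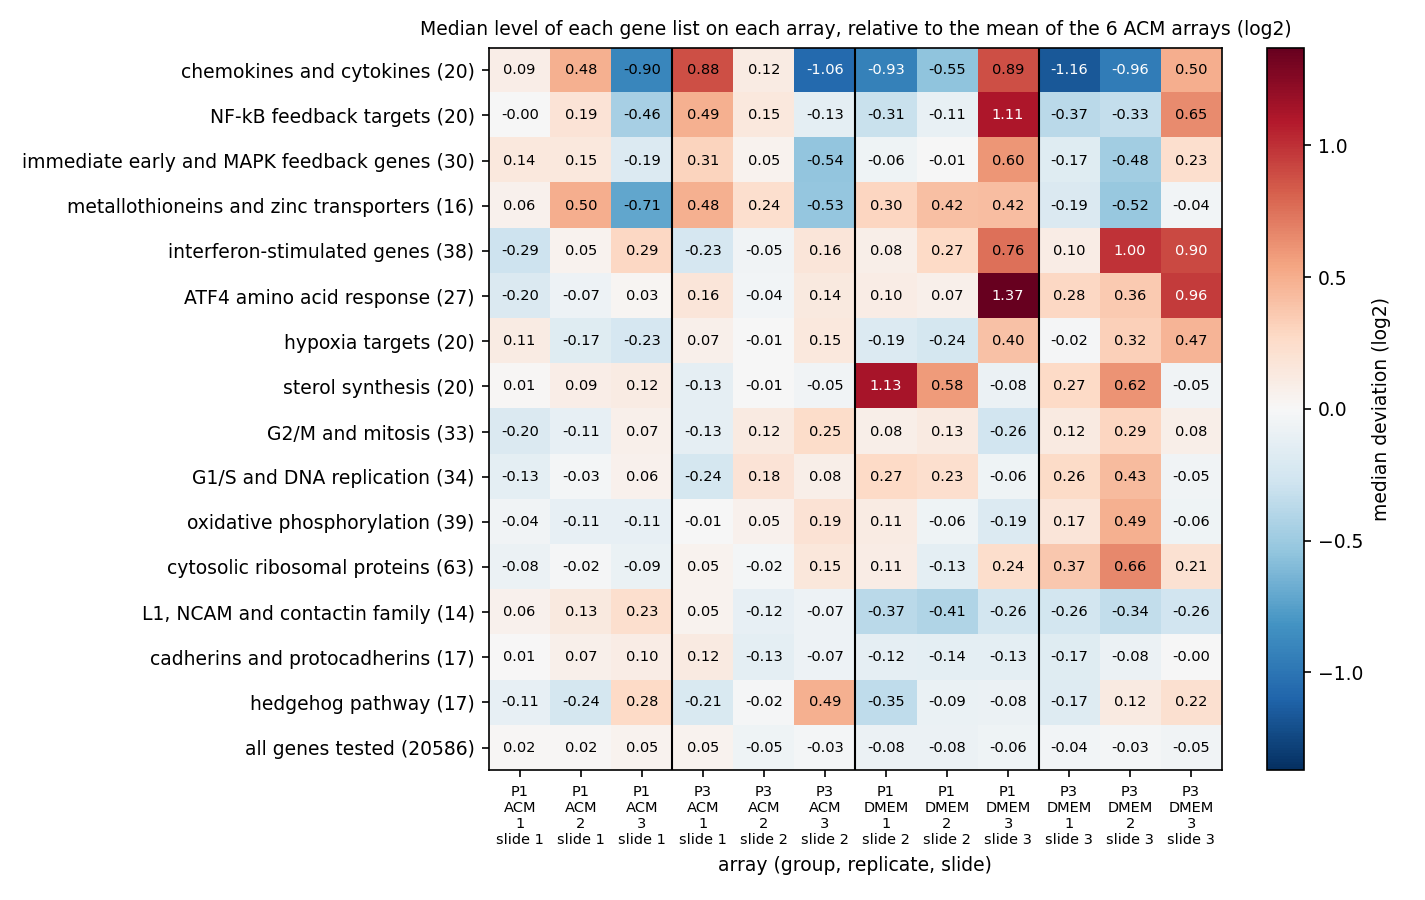
Median level of the genes of 15 lists, and of all genes tested, on each of the 12 arrays, relative to the mean of the 6 ACM arrays (log2), with the number of genes measured in brackets. Among the ACM arrays, chemokines run from -1.06 on P3 ACM replicate 3 to 0.88 on P3 ACM replicate 1, a wider range than between the passages, while G2/M genes lie between -0.20 and 0.25.

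Genes of mitosis and of energy supply were slightly higher in P3 ACM, with differences of which none (0) passed the thresholds. Of 33 measured G2/M genes 31 were higher, at a median of 0.18, and 19 (57.6%) were higher in every replicate pair, against 13.6% of all genes and 21.3% of the brightest class, to which 30 of the 33 belong. With quantile normalization the median was 0.10 and 16 were higher in every pair, against 16.9% of all genes. TOP2A, the topoisomerase that untangles replicated DNA, was at 2.86, 2.93 and 3.04 in P1 ACM and at 3.07, 3.27 and 3.23 in P3 ACM, without overlap (0.25 ± 0.16 SE, exact permutation p = 0.1). ASPM, a spindle pole protein, was at 3.16, 3.16 and 3.15 against 3.26, 3.41 and 3.59, and PTTG1, or securin, at 4.21, 4.20 and 4.06 against 4.35, 4.27 and 4.38, both without overlap. CCNB1, the cyclin of mitotic entry, was at 4.36, 4.45 and 4.37 against 4.42, 4.63 and 4.74, where one pair of arrays overlapped. Of the 33, 6 were higher without overlap (18.2%), beside 3.29% of all genes and 6.67% of the brightest class. MKI67, the proliferation antigen, was at 0.51, 0.55 and 1.00 against 0.31, 0.25 and 0.92. The G2/M median was -0.01 on P3 ACM replicate 1, 0.28 on replicates 2 and 3, 0.09 without P3 ACM replicate 3, and -0.04 under the table's labels, and passage in DMEM gave 0.16. The 34 genes of G1/S and DNA replication had a median of 0.02, with 18 higher and 16 lower.

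All 39 measured genes of oxidative phosphorylation were higher on average in P3 ACM, at a median of 0.16, with a range of 0.00 to 0.34, and none (0) passed. Of the brightest class of genes 70.5% were higher, and with quantile normalization 29 of the 39 were, at a median of 0.06. The median was 0.25 for passage in DMEM and 0.0016 under the table's labels. COX7C, a small subunit of cytochrome c oxidase, was at 5.19, 5.12 and 5.09 in P1 ACM and at 5.32, 5.29 and 5.39 in P3 ACM, and UQCRH, of complex III, at 5.54, 5.43 and 5.42 against 5.63, 5.65 and 5.75. Neither gene's groups overlapped, as for 9 of the 39, against 6.67% of the brightest class. Of 63 cytosolic ribosomal protein genes 55 were higher, at a median of 0.11 that fell to 0.03 with quantile normalization and was 0.38 for passage in DMEM. RPLP2 was at 6.18, 6.34 and 6.29 against 6.48, 6.40 and 6.53. Of 20 hypoxia targets 19 were higher, at a median of 0.18 beside 0.27 in DMEM, and of 0.31 without P1 ACM replicate 1 and 0.12 without P3 ACM replicate 3. VEGFA, the growth factor of vessels, was at 1.47, 2.09 and 1.64 against 1.91, 2.23 and 2.37 (0.44 ± 0.23 SE).

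Amino acid and lipid pathways differed little. Of 27 genes of the ATF4 amino acid response 19 were higher, at a median of 0.08, and 5 did so without overlap (18.5%, beside 3.29% of all genes and 6.67% of the brightest class). The median was 0.27 without P3 ACM replicate 2 and 0.17 without P1 ACM replicate 3. PSAT1, of serine synthesis, was at 2.69, 2.52 and 2.53 in P1 ACM and at 3.08, 2.79 and 2.92 in P3 ACM (0.35 ± 0.16 SE, exact permutation p = 0.1), SHMT2, its mitochondrial successor in the pathway, at 2.60, 2.59 and 2.60 against 2.69, 2.91 and 3.15, and PSPH at 1.85, 1.82 and 2.03 against 2.12, 2.04 and 2.31. These 3 enzymes of serine and one-carbon metabolism did not overlap between the passages, while PHGDH, the first enzyme of serine synthesis, and ASNS, the asparagine synthetase, did. The stress genes of the list did not separate: CHAC1 was at 1.59, 2.08 and 1.98 against 2.03, 1.67 and 1.91. Of 20 sterol synthesis genes 14 were lower, at a median of -0.11 that ran from -0.19 without P1 ACM replicate 1 to -0.04 without P3 ACM replicate 1. HMGCS1 was at -0.77, -0.82 and -0.22 against -0.91, -0.70 and -0.05, and the groups overlapped.

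Hedgehog genes had a median of -0.00 over the 17 measured, with 8 higher and 9 lower, and medians of -0.15 to 0.19 when 1 array was left out. GLI1 was at -3.58, -3.66 and -2.41 in P1 ACM and at -3.29, -2.77 and -1.20 in P3 ACM, higher in each replicate pair and highest in replicate 3 of both groups, but overlapping as groups (0.80 ± 0.58 SE, exact permutation p = 0.4). Passage in DMEM gave 1.29 for GLI1 (limma adjusted p = 0.477). The receptors PTCH1 and SMO were at -1.35, -1.31 and -0.45 against -1.14, -0.77 and -0.42, and at 1.75, 1.76 and 2.23 against 1.58, 1.94 and 2.45, each overlapping. MYCN, a target in this pathway, differed between replicates far more than between passages, at -4.11, -3.17 and -1.32 against -4.46, -2.80 and -1.35. Of 14 measured stem-like markers none (0) passed, 7 higher and 7 lower. Among those the study examined, NES, the intermediate filament of neural progenitors, differed by -0.07 ± 0.25 (SE), the pluripotency factor POU5F1 by 0.12 ± 0.27 (SE), SOX2 by 0.27 ± 0.22 (SE) and FUT4, which makes the CD15 epitope, by 0.01 ± 0.17 (SE). PROM1, which encodes CD133, was well above background on 1 of the 6 arrays and was not tested.

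Over the 38 lists together, 5 of the 895 distinct genes measured passed the thresholds (0.559%, beside 0.597% of all genes): FOS, higher, and IL33, L1CAM, CDH3 and CDH10, lower. No member passed in 33 lists, and 36 of the 38 medians were within 0.2 of 0, on a scale on which the within-group SD of a gene had a median of 0.28.

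The passage change in ACM was last set against that in DMEM. The difference between both was past the thresholds for 425 genes (2.06%), 408 of them lower in ACM (1.98%) and 17 higher (0.0826%), and 807 genes (3.92%) had a limma p of 0.05 or less, but 0 passed after adjustment (smallest adjusted p = 0.99985). Without P3 ACM replicate 1, 1155 genes had an adjusted p of 0.05 or less. The 5 genes with the smallest p were MIMT1, APOL5, IGF1, MYL4 and RXFP4. IGF1, the insulin-like growth factor, was at -1.81, -1.73 and -1.82 in P1 ACM and -1.90, -3.00 and -3.31 in P3 ACM, and at -3.20, -3.06 and -1.66 in P1 DMEM against -1.004, -1.16 and -1.22 in P3 DMEM. Its 4 low arrays were the 4 of slide 2, with both media and both passages among them, and the 8 arrays of slides 1 and 3 were high. MIMT1, a non-coding RNA, had the largest of these differences, -2.75, at 0.19, -0.11 and -0.28 in P1 ACM, -0.16, -1.83 and -2.47 in P3 ACM, -2.28, -2.12 and -1.65 in P1 DMEM and -0.86, -0.48 and -0.74 in P3 DMEM. APOL5, the myosin light chain MYL4 and the relaxin family receptor RXFP4 were also lowest on the arrays of slide 2. In these genes the medium by passage difference and the slide cannot be told apart.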

How the data were processed

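The authors sent Daoy cells to a commercial array service. Per the labels, RNA was extracted with TRIzol, amplified, labelled with Cy3 and hybridised to 12 single-colour Agilent arrays. The deposited scanner output (Agilent Feature Extraction 11.0.1.1) gives the background-corrected intensity of each spot. A second deposited file, quantile normalized by the authors, is on the log2 scale. Its labels conflict with the scanner files, and it was used as an alternative under its own labels.

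The 1377 control spots and spots called outliers were left out and the spots of a probe averaged. A level is log2(intensity) less log2 of that array's 75th percentile. Of 34127 probes, 25771 (75.5%) were named through RefSeq (GRCh38.p14), and a gene was read from its brightest kept probe. The 6 ACM arrays were compared in R 4.3.3 with limma 3.58.1 (lmFit, then eBayes). Tests were two-sided, and p-values were adjusted by Benjamini-Hochberg over the 25334 probes kept. A gene took the adjusted value of the probe read for it. All 12 arrays gave the DMEM, difference and slide fits. P-values measure the spread between the arrays of a group, and 3 arrays a group limit the precision. The arrays of P3 ACM, and those of P1 DMEM, were divided between slides, so in fits without slide that spread includes the slide. Single genes were tested by exact permutation. The fit was tested on simulated data with a common spread for all probes and no slide effect. That test cannot show how the fit behaves under slide differences.

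Named were up to 12 genes in each direction past the thresholds whose arrays did not overlap, by gap (leaving out Y-linked genes and names that are not symbols), list members past the thresholds or with a role in a result, genes the study names, and the 5 smallest p for the difference between media. The comparison, its members and the gene lists were chosen with earlier results of these data known. Alternatives were quantile normalization, normexp with offset 50, 3 filters on dim probes, all 12 arrays, slide and replicate blocks, trend and robust eBayes, the methods' t-test, probe means, the table, and leaving out each array. Deviations of same-numbered P1 and P3 ACM arrays from their group means correlated at 0.27, 0.23 and 0.66, all above 0.1 (unlike numbers ran up to 0.42, for P1 replicate 2 with P3 replicate 1), so the replicate numbers were taken to pair the samples, from the data and not from the labels.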

Additional observations from a re-analysis of the deposited data

How the results depend on the processing

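Against 123 genes past the thresholds (5 higher, 118 lower), the counts in all, higher and lower were 51, 31 and 20 with quantile normalization, 20, 4 and 16 with normexp before it, 660, 72 and 588 with no filter on dim probes, 311, 8 and 303 with all 12 arrays in the fit, 52, 39 and 13 with slide as a fixed block, 22, 6 and 16 with slide as a random block, 258, 9 and 249 with the replicate numbers as a block (pairing the samples), 10, 1 and 9 with the methods' t-test, and 54, 44 and 10 in the table under its own labels. With probes well above background on all 12 arrays 3 were higher. Leaving out each array in turn gave 17 to 1679 genes, 4 to 16 higher, 11 to 1666 lower, and 0 to 1786 with adjusted p of 0.05 or less. The DMEM count of 287 ran from 84 to 788. For the difference between media, the count with adjusted p of 0.05 or less was 0 in the main fit and ran from 0 to 1155. The count within slide 1 was 79 with quantile normalization. The cause of these moves was not tested. With slide as a fixed block IL33 (0.056) and CDH3 (0.070) turned to higher, as did NCAM2 (0.046), which was not past the thresholds. Under the table's labels SLC7A14 (0.39), BCAR4 (0.060), LCE1B (0.0060), CEACAM21 (0.25), PROK1 (0.18), RXFP4 (1.18), LMX1A (0.43), MUC16 (0.37), LTC4S (1.08), CDH10 (0.77), MIMT1 (1.22), APOL5 (1.06), IGF1 (1.33) and MYL4 (1.01) did. FOS kept its call under each setting but slide as a fixed block (1.54). Of 555 values of single genes under other settings, 343 kept direction and side of the thresholds (or, where not past them, moved by less than 1 SD), and of 684 of list medians, 610 moved by less than the spread between replicates. The block changed the call of no gene named in the report other than CXCL2. Dim probes and the 3 arrays in each group limit what these arrays can show.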
